A study of Drosophila melanogaster with 24 samples.

Results

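Antennal lobe (AL) and mushroom body (MB) neuroblasts of the fruit fly Drosophila melanogaster were compared in the late larva, at 84 h after hatching. The comparison takes the 3 AL libraries against the 3 MB libraries of that age, which are 6 of the 24 libraries of the series, and it covers every one of the 15339 genes counted. Of these, 10324 had enough counts over the series to be tested. Every library was made from pooled GFP-labelled cells picked by a sorting robot from dissected brains. At 84 h these were 106, 108 and 101 cells for AL and 108, 102 and 120 cells for MB. The labels name no treatment. The same lineages were sampled at 24 h and 50 h, with 3 libraries of each lineage and age, and these enter the last comparison. The sources used here give neither the genotype and driver behind the GFP label nor the sex of the larvae, and do not say whether libraries came from separate cultures. The p-values therefore cover only library-to-library spread, which may be technical. Because each library is a pool, fewer cells of a type and less RNA per cell cannot be told apart.

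Neuroblasts are the stem cells of the fly brain. They renew themselves at each division and bud off a smaller daughter whose progeny become neurons, and the kind of neuron made changes as the neuroblast ages. The RNA-binding proteins Imp and Syp mark this ageing: Imp is known to decline and Syp to build up, quickly in AL neuroblasts and slowly in MB neuroblasts, which go on dividing into the pupa. AL neuroblasts make neurons of the first olfactory relay and MB neuroblasts make Kenyon cells, the neurons of a centre for olfactory learning.

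Total gene counts at 84 h ranged from 6455359 to 8206040 in AL and from 4674446 to 5019551 in MB, so that depth differed by lineage. Genes with a count numbered 10340 to 10981 in AL and 11169 to 11520 in the shallower MB libraries. Libraries of 1 lineage correlated at 0.946 to 0.952 and libraries of different lineages at 0.915 to 0.935 (log2 scale, across genes, which are not independent replicates). The row CR41602, which the table annotates as ribosomal RNA, took 6.04% ± 0.415 of gene counts in AL and 11.6% ± 2.17 in MB (SD, n = 3 each), with the lowest MB share, 9.16%, in replicate 2. Levels are in CPM, the usual per-library scaling of counts, here over TMM-adjusted library totals, given in the order of replicates 1, 2 and 3 or as mean ± SD with n = 3. Differences are log2 fold changes of AL over MB ± SE, positive where AL was higher. Adjusted p-values come from the quasi-likelihood test of edgeR after Benjamini-Hochberg adjustment, with all 24 libraries in the fit, and a gene was called at an adjusted p under 0.05.

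At 84 h the lineages differed in 792 of the 10324 genes tested (7.67%), 456 of them higher in AL (4.42%) and 336 higher in MB (3.25%). The calls had a median fold of 2.02 in either direction. Large differences lay more often on the MB side: of 130 genes that differed at least 8-fold, 97 were higher in MB and 33 in AL. The calls higher in AL were in general abundant genes, with a median of 148 CPM in AL, whereas those higher in MB had a median of 52.3 CPM in MB and the genes not called 10.9 CPM in their higher group. Among the 1583 genes at 100 CPM or more in the higher group, 292 were higher in AL and 128 in MB. Among the 4689 genes under 10 CPM, 16 were higher in AL and 74 in MB. The 3 AL and 3 MB libraries did not overlap for 2645 genes (25.6%), so that a lack of overlap by itself was common. All genes together had a median log2 difference of -0.04.

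The balance of the calls depended on the scaling. With library sizes set by spike-in RNA and recorded cell numbers, the median of all genes fell by 0.23 on the log2 scale, and 335 genes were called, of which 81 (24.2%) were higher in AL in place of 57.6%. None of the 274 genes called higher in AL by less than 1 on the log2 scale passed under that scaling, although all 274 kept their direction, while 50 of the 62 with a difference of 2 or more passed. On the MB side, 137 of the 145 genes with a difference of 2 or more passed. The labels repeat the AL cell numbers of 84 h for AL at 24 h, and with the spike-in scaling alone, added after the data were seen, 81 genes were called higher in AL and 310 in MB.

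**Figure D1:**
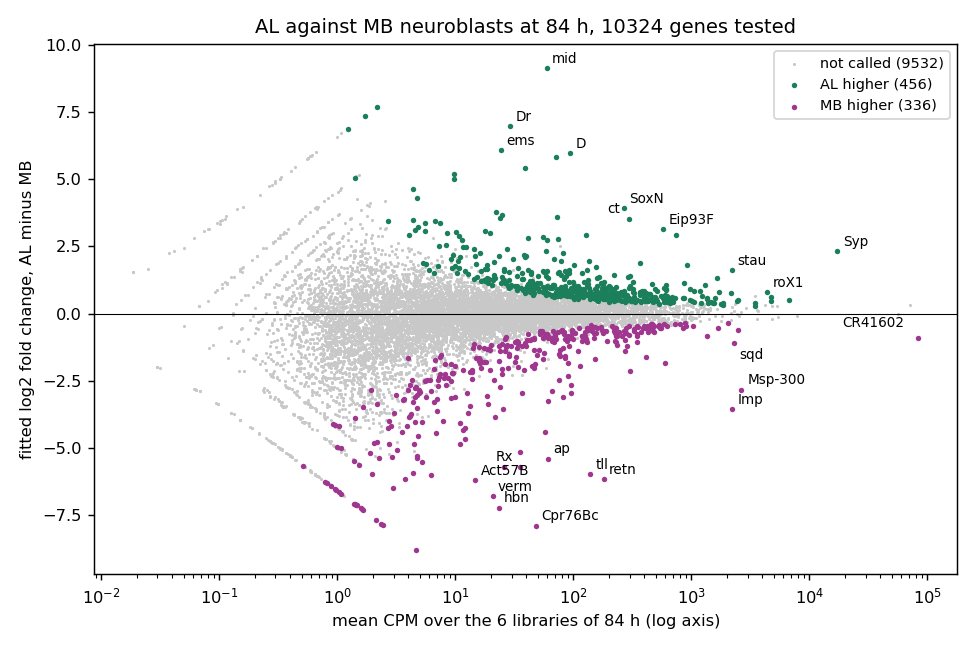
Each point is 1 of the 10324 genes tested, with its mean CPM over the 6 libraries of 84 h on a log axis and its fitted log2 fold change of AL over MB. The 456 genes higher in AL (green) include many abundant genes with small differences, which were no longer called under spike-in scaling. The 336 genes higher in MB (purple) more often differ at least 8-fold (97 genes, against 33 in AL), with tll, retn and Cpr76Bc among them.

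Among the factors that mark neuroblast age, Imp was lower and Syp and Eip93F were higher in AL. Imp, an RNA-binding protein of early neuroblasts (chromosome X at 10690246 to 10700889, dm3), was at 303, 398 and 342 CPM in AL and at 4439, 3506 and 4347 CPM in MB. Every MB library was far above every AL library, and the difference was -3.56 ± 0.13 (adjusted p = 3.1e-18). Syp, the RNA-binding protein of late neuroblasts (chromosome 3R at 16582451 to 16631963, dm3), was at 28399, 28982 and 29159 CPM in AL and at 6508, 4558 and 6203 CPM in MB. The AL libraries were close to each other and all above MB, with a difference of 2.33 ± 0.23 (adjusted p = 2.8e-06). Per transcript length, Imp was at 65.3 ± 7.78 TPM in AL and 779.7 ± 66.4 TPM in MB, and Syp at 6521 ± 59.4 TPM in AL and 1314 ± 182 TPM in MB, so that in both lineages the Syp level was above the Imp level by this measure. Eip93F, an ecdysone-induced transcription factor of late neuroblasts, was at 785, 937 and 1367 CPM in AL and at 109, 83.8 and 158 CPM in MB, a difference of 3.14 ± 0.33 (adjusted p = 3.6e-06).

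In the list of 16 temporal factors, all of them tested, 5 were higher in AL, 1 was higher in MB and 10 were not called. That is 37.5% called, beside 7.67% of all genes. Besides Syp and Eip93F, the SoxB gene D was at 223, 181 and 153 CPM in AL against 4.31, 2.87 and 1.69 CPM in MB, a difference of 5.98 ± 0.48 (adjusted p = 9e-08). The nuclear receptor gene svp, a switching factor of embryonic neuroblasts, was at 188 ± 35.1 CPM in AL and 77.9 ± 22 CPM in MB, 1.27 ± 0.26 (adjusted p = 0.0027). The transcription factor gene grh was at 863, 816 and 917 CPM in AL and 645, 505 and 603 CPM in MB, 0.57 ± 0.12 (adjusted p = 0.00096), but with spike-in and cell number scaling its difference was 0.34 with an adjusted p of 0.67. The zinc finger genes chinmo and br, which set the identity of early and late neurons, were not called. For chinmo the libraries overlapped, at 392, 708 and 725 CPM in AL and 931, 561 and 986 CPM in MB (-0.44 ± 0.22, adjusted p = 0.29), although chinmo was called with no filter on low counts (adjusted p = 0.011). For br they also overlapped, at 481, 416 and 439.9 CPM in AL and 619, 403 and 529 CPM in MB (-0.22 ± 0.18, adjusted p = 0.56). The ecdysone receptor gene EcR was at 219 ± 28.3 CPM in AL and 171 ± 40.2 CPM in MB (0.35 ± 0.20, adjusted p = 0.34). The remaining factors of the list, hb, Kr, nub, pdm2, cas, lin-28 and mamo, were at means between 0.375 and 57.3 CPM and were not called. Exceptions were Kr, in MB, and cas, in AL, with no filter on low counts (adjusted p = 0.00087 and 0.025).

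**Figure D2:**
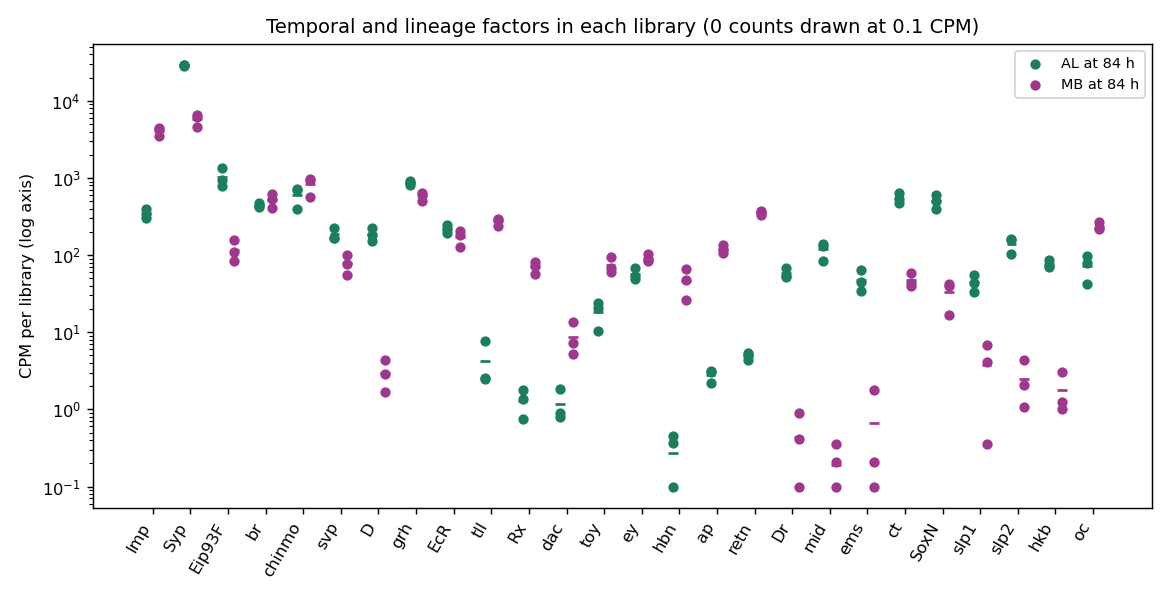
CPM in each of the 6 libraries of 84 h (log axis, with 0 counts drawn at 0.1 CPM), for 26 temporal and lineage factors chosen after results were seen. Dots are libraries, short bars are group means, and green is AL and purple MB. Imp, tll, Rx, retn and ap sit higher in MB and Syp, Eip93F, D, mid, Dr and ems higher in AL, whereas the libraries of chinmo, br and EcR overlap.

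The transcription factors known for the MB lineage separated the libraries of the lineages. All 6 members of that list were called, against 7.67% of all genes, 5 of them higher in MB. Like every list here, it was chosen with earlier results of these data known, so the share is a description only. The nuclear receptor gene tll, which keeps MB progenitors proliferating (chromosome 3R at 26678037 to 26680095, dm3), was at 2.47, 7.76 and 2.57 CPM in AL and 296, 237 and 287 CPM in MB, a difference of -5.98 ± 0.26 (adjusted p = 2.7e-21). The homeobox gene Rx was at 1.80, 1.35 and 0.76 CPM in AL and 71.4, 56.2 and 82.6 CPM in MB, -5.69 ± 0.37 (adjusted p = 7.6e-16). The Pax6 gene toy was at 24.2, 10.5 and 20.7 CPM in AL and 68.6, 59.9 and 95.7 CPM in MB, -2.02 ± 0.36 (adjusted p = 0.00021). Its relative ey differed much less, with 56.9 ± 10.5 CPM in AL and 92.1 ± 11.2 CPM in MB, and every MB library was above every AL library (-0.70 ± 0.21, adjusted p = 0.031). The ey call was lost without AL replicate 1, AL replicate 2, MB replicate 2 or MB replicate 3, with adjusted p from 0.064 to 0.15, and with spike-in and cell number scaling (adjusted p = 0.09). The nuclear factor gene dac was low in both lineages, at 0.79, 1.85 and 0.91 CPM in AL and 13.8, 7.18 and 5.27 CPM in MB (-2.86 ± 0.68, adjusted p = 0.0052).

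The remaining member of that list went the other way. Dr, an Msx-type homeobox gene (chromosome 3R at 25382109 to 25391007, dm3), was at 52.1, 53 and 69.1 CPM in AL and 0.41, 0.90 and 0 CPM in MB, a difference of 6.97 ± 0.71 (adjusted p = 8e-09). With so few counts in MB its fold is uncertain, but no AL library was under 52.1 CPM and no MB library was over 0.90 CPM.

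In the list of AL lineage transcription factors, 9 of 11 genes were tested. The homeobox genes ems and ct were higher in AL, oc, vnd and pdm3 were higher in MB, and 4 were not called. Thus 55.6% were called, beside 7.67% of all genes. The head gap gene ems (chromosome 3R at 9727581 to 9730346, dm3) was at 63.8, 45.3 and 34.6 CPM in AL and 0.21, 1.79 and 0 CPM in MB, a difference of 6.07 ± 0.48 (adjusted p = 1.1e-11). The gene ct was at 472, 532 and 646 CPM in AL and 43.5, 40.4 and 59.4 CPM in MB, 3.52 ± 0.30 (adjusted p = 1.5e-07). The orthodenticle gene oc was present in both lineages, at 41.6, 79 and 97.9 CPM in AL and 224, 216 and 266 CPM in MB, and its MB level was higher (-1.69 ± 0.33, adjusted p = 0.0021). The calls of vnd (-2.41 ± 0.78, adjusted p = 0.047) and pdm3 depended on single libraries. The gene pdm3 had 0 counts in the AL libraries and its MB libraries overlapped them, which gives a fold of at least 5.05 in MB over a floor of 3 counts per library. Leaving out AL replicate 1, AL replicate 2, MB replicate 1 or MB replicate 3 ended both of these calls (adjusted p 0.055 to 0.22), and so did AL replicate 3 for pdm3 (0.14) and MB replicate 2 for vnd (0.06). The other 4, which include acj6 and vvl, were not called, but Lim1 (2.26 ± 1.15, adjusted p = 0.28) was called without MB replicate 1 (5.73, adjusted p = 0.012).

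Other transcription factors had differences as large as those of the lists, and the highest was mid, a T-box gene. It was at 140.2, 85.1 and 131 CPM in AL and 0.21, 0.36 and 0 CPM in MB (chromosome 2L at 5461641 to 5466829, dm3). Over the 3 libraries of each lineage mid had 2805 counts in AL and 3 in MB, a ratio of 623 after scaling with an exact 95% counting interval of 213 to 3024. The fitted log2 difference was 9.13 ± 0.40 (adjusted p = 9.3e-22).

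The forkhead genes slp2 and slp1, which act in the temporal series of optic lobe neuroblasts, were both higher in AL. For slp2 the libraries were at 104, 157 and 160.2 CPM in AL and 4.31, 1.08 and 2.07 CPM in MB (5.84 ± 0.50, adjusted p = 8.3e-08). For slp1 they were at 44.1, 33.8 and 55.6 CPM in AL and 4.11, 0.36 and 6.77 CPM in MB (3.57 ± 0.50, adjusted p = 1.8e-06). The zinc finger gene hkb was at 86, 69.5 and 72.2 CPM in AL and 1.03, 1.26 and 3.01 CPM in MB (5.41 ± 0.59, adjusted p = 4.1e-08). The SoxB gene SoxN was at 394, 501 and 604 CPM in AL and 42.7, 16.5 and 40.1 CPM in MB (3.92 ± 0.23, adjusted p = 3.8e-14). The zinc finger gene ovo was at 46.5 ± 20.3 CPM in AL and 3.67 ± 3.10 CPM in MB (3.67 ± 0.64, adjusted p = 0.00049). Among the homeobox genes outside the lineage lists, hth, a partner of Hox proteins, was at 1250.4, 1427 and 1273 CPM in AL and 183, 134 and 202 CPM in MB (2.93 ± 0.23, adjusted p = 1.7e-08).

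On the MB side, the homeobox gene hbn was at 0.45, 0.37 and 0 CPM in AL and 47.4, 26.2 and 65.8 CPM in MB, a difference of -7.22 ± 0.63 (adjusted p = 8.4e-12). The LIM homeobox gene ap was at 3.03, 2.22 and 3.17 CPM in AL and 135, 106 and 116 CPM in MB (-5.40 ± 0.42, adjusted p = 2.6e-09). The ARID-domain gene retn was at 4.38, 5.05 and 5.44 CPM in AL and 373, 333 and 362 CPM in MB (-6.17 ± 0.26, adjusted p = 5.5e-18). The zinc finger gene Sp1 had 4 counts in AL in all and was at 13.5, 7.54 and 16 CPM in MB (-6.0 ± 1.48, adjusted p = 0.0061). The ETS factor gene pnt, an effector of EGFR and FGF signalling, was at 3.26, 8.75 and 13.8 CPM in AL and 68, 34.8 and 93.5 CPM in MB (-2.94 ± 0.50, adjusted p = 0.00014). Of 39 other homeobox genes tested, 3 were higher in AL, 5 were higher in MB and 31 were not called. That is 20.5% called, beside 7.67% of all genes. The AL count was 1 and the MB count 2 without AL replicate 3, and the MB count was 3 without AL replicate 1 or MB replicate 1, and 8 when the fit held only the libraries of 84 h.

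Several of the genes with the highest fold in MB do not encode transcription factors. The cuticle protein gene Cpr76Bc was at 0.45, 0.25 and 0.45 CPM in AL and 133, 75.2 and 78.8 CPM in MB, a difference of -7.89 ± 0.74 (adjusted p = 9e-08). The chitin deacetylase gene verm was at 0.34, 0 and 0.76 CPM in AL and 59.7, 24.8 and 38.7 CPM in MB (-6.79 ± 1.07, adjusted p = 1.8e-05). The actin gene Act57B was at 0.34, 0.62 and 0.15 CPM in AL and 49.1, 18.3 and 20.5 CPM in MB (-6.21 ± 0.81, adjusted p = 3.5e-07). In all 3 genes MB replicate 1 held the highest value. Actin genes are close copies of each other, so the Act57B count may include reads that another actin gene shares.

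Further genes of this kind were CG6287 at 52.8, 42.9 and 58.1 CPM in MB and 1.12, 1.11 and 0.60 CPM in AL (-5.70 ± 0.46, adjusted p = 6.2e-13), the cytochrome P450 gene Cyp28d2 (-5.14 ± 0.58, adjusted p = 4.2e-07) and CG15414 (-4.65 ± 0.58, adjusted p = 1.2e-07). The calls of CG17290, Gyc32E and Che-13, also among the 15 largest in MB, were lost when 1 library was left out. CG17290 lost it without AL replicate 1, AL replicate 3, MB replicate 1 or MB replicate 3 (adjusted p 0.082 to 0.12), Gyc32E without AL replicate 1 or 3 (0.062 and 0.075) and Che-13 without AL replicate 3 (0.052). On the AL side, the ligand gene Wnt4 was at 20.5, 13.7 and 23 CPM in AL and 0, 1.08 and 0.38 CPM in MB (5.20 ± 0.92, adjusted p = 0.0002), and the genes CG30419 (5.01 ± 0.71, adjusted p = 3.4e-06), lft (3.78 ± 0.70, adjusted p = 0.00019) and CG9990 (3.60 ± 0.44, adjusted p = 3.1e-06) followed. CG11147, the last of the 15, overlaps CG11030 on the opposite strand, which had 10.3 times its counts, and its call was lost without any library but MB replicate 1 (adjusted p 0.061 to 0.19) and with spike-in and cell number scaling (0.064).

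By a rule chosen after results were seen, 6 genes were at 10 CPM or more in every library of one lineage and under 1 CPM in every library of the other. These were Dr and mid in AL, and Act57B, Cpr76Bc, hbn and verm in MB.

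The genes whose level differed most in CPM, besides Syp, Imp and CR41602, included Msp-300, a giant nesprin that anchors nuclei to the cytoskeleton. It was at 484, 735 and 717 CPM in AL and 5178, 3666 and 4906 CPM in MB (-2.83 ± 0.28, adjusted p = 2.9e-06). The double-stranded RNA-binding gene stau, known for localising prospero mRNA in dividing neuroblasts, was at 3311, 3404 and 3234 CPM in AL and 1119.5, 913 and 1219.6 CPM in MB (1.61 ± 0.12, adjusted p = 4.9e-14). The hnRNP gene sqd was at 1552, 1508 and 1354 CPM in AL and 3678, 2679.7 and 3118 CPM in MB (-1.10 ± 0.11, adjusted p = 3.5e-10).

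Calls with a difference under 1 on the log2 scale lay on both sides, 274 higher in AL and 115 higher in MB. The 4 named next were abundant genes higher in AL. The noncoding RNA gene roX1, part of the male dosage compensation complex, was at 5779, 5292 and 5543 CPM in AL and 3351, 2773 and 3469.8 CPM in MB (0.79 ± 0.10, adjusted p = 6.9e-08). CG3800 (0.61 ± 0.10, adjusted p = 3.6e-05), the chromatin factor gene Df31 (0.51 ± 0.09, adjusted p = 0.00012) and the hnRNP gene Hrb27C (0.47 ± 0.10, adjusted p = 0.00072) had libraries that did not overlap either. With spike-in and cell number scaling these 4 calls were lost, with adjusted p from 0.33 for roX1 to 0.78 for Hrb27C. The noncoding RNA gene CR43283 took 8.27% ± 0.816 of gene counts in AL and 6.85% ± 0.646 in MB and was not called (0.32 ± 0.16, adjusted p = 0.31).

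Markers of neuroblasts were present in both lineages, with dpn at 468 to 761 CPM in AL and 368 to 574 CPM in MB. Of 8 markers, 4 were higher in AL (ase, klu, mira and grh) and dpn, wor, insc and pros were not called. That is 50% called, beside 7.67% of all genes, with a median log2 difference of 0.46 against -0.04 for all genes. The proneural-type gene ase was at 181, 109 and 156 CPM in AL and 55.2, 68.2 and 94.4 CPM in MB (1.03 ± 0.20, adjusted p = 0.00044). The Wilms-tumour-type zinc finger gene klu was at 621, 854 and 977 CPM in AL and 384, 314 and 484 CPM in MB (1.05 ± 0.15, adjusted p = 2.6e-06). The asymmetric division list had 6 of 17 genes higher in AL and none higher in MB: stau, mira, numb, aPKC, par-6 and l(2)gl. These were 35.3% of the list, beside 7.67% of all genes called. The adaptor gene mira, which carries cell fate determinants into the smaller daughter, was at 384, 488 and 539 CPM in AL and 265, 240.4 and 309 CPM in MB (0.79 ± 0.15, adjusted p = 0.0002). The Notch inhibitor gene numb was at 482, 435 and 632 CPM in AL and 311, 261 and 344 CPM in MB (0.76 ± 0.14, adjusted p = 0.0002).

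In the Notch pathway 4 of 24 genes were higher in AL and none in MB, or 16.7% called beside 7.67% of all genes. The receptor gene N was at 556, 644 and 782 CPM in AL and 373, 367 and 354 CPM in MB (0.86 ± 0.12, adjusted p = 2.6e-06), the coactivator gene mam at 241 ± 67.9 and 142 ± 27.2 CPM (0.76 ± 0.17, adjusted p = 0.0022), and the metalloprotease gene kuz at 319 ± 24.6 and 198 ± 38.8 CPM (0.69 ± 0.17, adjusted p = 0.0073). The target gene E(spl)m3-HLH was low, at 13.4, 6.41 and 9.97 CPM in AL and 1.03, 0.36 and 2.07 CPM in MB (3.09 ± 0.71, adjusted p = 0.0027). The mam call was lost without AL replicate 3 (adjusted p = 0.064), the kuz call without MB replicate 2 (0.058) and the aPKC call without MB replicate 2 (0.094). With spike-in and cell number scaling 1 gene of each of the division and Notch lists was still called, stau and E(spl)m3-HLH, none of the 4 neuroblast markers was, and the median of the Notch list turned from 0.13 to -0.10. The adjusted p under that scaling ran from 0.12 for klu to 0.67 for grh among the lost calls of these lists that are given with values.

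Among 19 neuroblast and proneural transcription factors, SoxN, klu, ase and lola were higher in AL and l(1)sc and Sox102F in MB. That is 31.6% called, beside 7.67% of all genes. The Sox gene Sox102F was at 5.05, 5.30 and 3.93 CPM in AL and 14.8, 19.7 and 30.8 CPM in MB (-2.19 ± 0.45, adjusted p = 0.00075).

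Of the members tested, 18.8% were called in TGF-beta signalling, 24% in hedgehog and Wnt signalling, 9.52% in EGFR and FGF signalling and 11.8% in insulin and TOR signalling, beside 7.67% of all genes. In TGF-beta signalling the transducer gene Mad was at 71.4, 169 and 145 CPM in AL and 50.9, 41.1 and 35 CPM in MB (1.6 ± 0.24, adjusted p = 4.3e-06), with the lowest AL value in replicate 1. Its inhibitory relative Dad had the same low library, at 25.7, 136 and 129 CPM in AL and 8.21, 10.8 and 21.6 CPM in MB (2.84 ± 0.82, adjusted p = 0.043). The Dad call held without AL replicate 1 but was lost without any other library (adjusted p 0.062 to 0.16) and with spike-in and cell number scaling (0.16). The receptor gene put was the only member called in MB (-0.66 ± 0.21, adjusted p = 0.049), a call lost without any single library (0.06 to 0.24). The remaining 13 of 16 genes were not called.

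In hedgehog and Wnt signalling 2 of 25 genes were higher in AL (Wnt4 and Wnt5) and 4 in MB (pan, fz, arm and nkd). The beta-catenin gene arm was at 79, 82.8 and 96.6 CPM in AL and 187, 133 and 184 CPM in MB (-0.96 ± 0.16, adjusted p = 2.4e-05). The TCF gene pan, its nuclear partner, was at 29.1, 31.7 and 16.8 CPM in AL and 177, 147 and 171 CPM in MB (-2.67 ± 0.37, adjusted p = 8.6e-05). The feedback inhibitor gene nkd was at 58.2 ± 15.4 CPM in AL and 113 ± 18.7 CPM in MB (-0.95 ± 0.24, adjusted p = 0.0096), a call lost without AL replicate 1 (adjusted p = 0.068). The AL count was 1 without AL replicate 3, MB replicate 1 or MB replicate 2 and with spike-in and cell number scaling, and 4 with no filter on low counts, and the MB count was 2 without AL replicate 1. In EGFR and FGF signalling the ligand gene spi was higher in AL (0.57 ± 0.14, adjusted p = 0.0044; 0.7 with spike-in and cell number scaling) and pnt higher in MB, and 19 of 21 genes were not called. The AL count was 3 without AL replicate 1 or MB replicate 3.

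In insulin and TOR signalling 2 of 17 genes were called, both higher in MB. The secreted insulin antagonist gene ImpL2 was at 99.6, 127 and 111 CPM in AL and 489, 522 and 468 CPM in MB (-2.13 ± 0.47, adjusted p = 0.0079). The translation inhibitor gene Thor, the fly 4E-BP, was at 42, 41.3 and 33.8 CPM in AL and 153, 125 and 141 CPM in MB (-1.84 ± 0.29, adjusted p = 0.00021). Of 21 ecdysone and juvenile hormone response genes, Eip93F and the coactivator gene tai (0.68 ± 0.15, adjusted p = 0.0021; 0.55 with spike-in and cell number scaling) were higher in AL. The third call, Jheh2 in MB, was at an adjusted p just under 0.05 and was lost without any single library (0.051 to 0.19). Of the hormone response list 14.3% were called, beside 7.67% of all genes.

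Calls among genes of the ribosome and of glycolysis lay on the MB side. Of 89 cytoplasmic ribosomal protein genes tested, 30 were higher in MB and none in AL, against 3.25% of all genes higher in MB, and 80 of the 89 log2 differences were below 0, with a median of -0.33. The largest was of RpS19b, the less abundant of the RpS19 copies, at 2.92, 3.20 and 2.12 CPM in AL and 16.4, 16.3 and 11.1 CPM in MB (-2.40 ± 0.48, adjusted p = 0.00052). RpL39 was at 111, 117 and 84.9 CPM in AL and 188, 231 and 166 CPM in MB (-0.90 ± 0.16, adjusted p = 7.3e-05), and RpS20 at 322, 323 and 332 and 511, 601 and 468 CPM (-0.69 ± 0.12, adjusted p = 5.9e-05). The count was 18 without AL replicate 1, 10 without MB replicate 2 and 36 without MB replicate 3, and 5 with spike-in and cell number scaling, under which the median was -0.57. Ribosomal RNA counts (CR41602) were also higher in MB and lowest there in replicate 2, and their part in this result was not tested.

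Of 13 glycolytic genes, 7 were higher in MB and none in AL, with a median of -0.71. That is 53.8% called, beside 7.67% of all genes. Gapdh1 was at 201, 224 and 247 CPM in AL and 480.0, 412 and 498 CPM in MB (-1.05 ± 0.14, adjusted p = 6.7e-07), and its close copy Gapdh2, which may share reads with it, was at 209 ± 10.7 and 343 ± 21.4 CPM (-0.71 ± 0.14, adjusted p = 0.00034). The phosphoglycerate mutase gene Pglym78 was at 192, 176 and 143 CPM in AL and 435, 338 and 418 CPM in MB (-1.22 ± 0.16, adjusted p = 4.2e-07), and the aldolase gene Ald at 928, 1016 and 984 and 1824, 1626 and 1761 CPM (-0.83 ± 0.14, adjusted p = 3.3e-05). The number called was 4 without AL replicate 3 and 5 with spike-in and cell number scaling, where Gapdh2 had an adjusted p of 0.053.

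Among 22 oxidative phosphorylation genes 3 were higher in MB, the cytochrome c gene Cyt-c-p (-0.73 ± 0.14, adjusted p = 0.00033) and the ATP synthase subunit genes blw (-0.53 ± 0.11, adjusted p = 0.0015) and ATPsyn-gamma (-0.92 ± 0.23, adjusted p = 0.0073). The ATPsyn-gamma call was lost without AL replicate 3 or MB replicate 1 (adjusted p 0.078 and 0.081) and the blw call with spike-in and cell number scaling (0.15). The share called among the 22 oxidative phosphorylation genes was 13.6%, beside 7.67% of all genes. None of 72 mitochondrial ribosomal protein genes was called. In the list of Myc and ribosome biogenesis the Myc gene dm was at 1398, 1501 and 1959 CPM in AL and 1209.8, 997 and 1032 CPM in MB (0.58 ± 0.12, adjusted p = 0.00087), and its antagonist gene Mnt at 319, 363 and 529.8 and 199, 148 and 253 CPM (1.01 ± 0.18, adjusted p = 0.0002), both higher in AL, but with spike-in and cell number scaling at adjusted p of 0.69 and 0.18. Tif-IA was also higher in AL (0.68 ± 0.18, adjusted p = 0.0089), which was lost without AL replicate 1 (0.052), and the fibrillarin gene Fib was higher in MB (-0.54 ± 0.16, adjusted p = 0.026), which was lost without any library but MB replicate 1 (0.058 to 0.17). Neither Tif-IA (0.53) nor Fib (0.19) was called with spike-in and cell number scaling, where no member of that list was. As reported, 20% of the Myc and ribosome biogenesis list were called, beside 7.67% of all genes. The MB count of the list was 2 without AL replicate 1, where other genes passed, and 3 with DESeq2.

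Of 46 cell cycle genes 41 were not called. The share called was 10.9%, near the 7.67% of all genes. The cyclin gene CycE (0.55 ± 0.14, adjusted p = 0.0098), the Cdc25 gene stg (0.61 ± 0.15, adjusted p = 0.0056) and the condensin gene barr (0.71 ± 0.19, adjusted p = 0.012) were higher in AL. Orc1, of the replication origin complex, was at 158, 211 and 189 CPM in AL and 403, 261 and 337 CPM in MB (-0.84 ± 0.17, adjusted p = 0.00068), although it overlaps CG2144 on the opposite strand, whose counts were 0.38 times its own, and geminin was also higher in MB. The AL count was 1 without AL replicate 1, and the MB count was 1 without AL replicate 2, AL replicate 3, MB replicate 1 or MB replicate 2 and 5 with DESeq2. Calls were lost without 1 library for CycE (MB replicate 2, adjusted p = 0.068), stg (AL replicate 1, 0.075) and barr (AL replicate 1, AL replicate 2 or MB replicate 1, 0.057 to 0.13), and these 3 were lost with spike-in and cell number scaling (0.51 to 0.67).

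**Figure D3:**
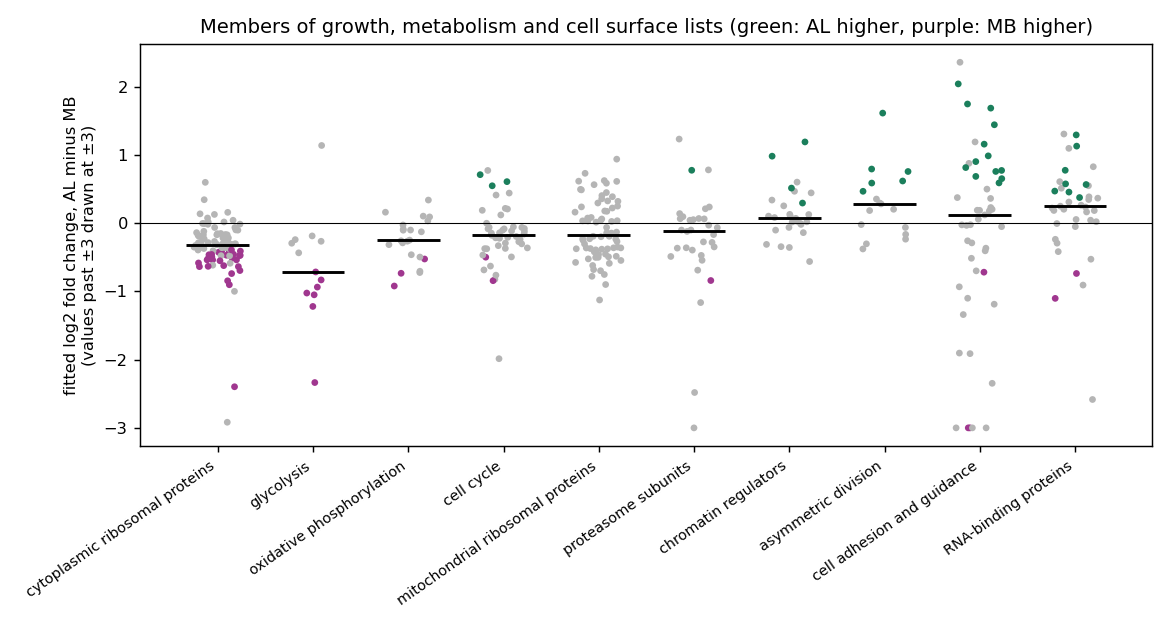
Fitted log2 fold change of AL over MB for every tested member of 10 gene lists. Green points were called higher in AL, purple points higher in MB and grey points were not called, bars are medians, and values past 3 in either direction are drawn there. The ribosomal protein and glycolysis lists lie below 0 with no member called higher in AL, and the asymmetric division and RNA-binding lists have medians of 0.28 and 0.25, of which the latter turned to -0.05 under spike-in scaling alone. The median of the adhesion list, 0.12, turned to -0.20 with spike-in and cell number scaling.

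Of 49 cell adhesion and guidance genes, 13 were higher in AL and 3 in MB, or 32.7% called beside 7.67% of all genes. The pseudokinase receptor gene otk was at 285, 228 and 207 CPM in AL and 72.7, 77.7 and 64.5 CPM in MB (1.75 ± 0.21, adjusted p = 3e-07). The netrin receptor gene unc-5 was at 127, 86.3 and 133 CPM in AL and 48.7, 44.1 and 34.4 CPM in MB (1.44 ± 0.22, adjusted p = 4.8e-06), but it overlaps Pms2 on the opposite strand, which had 0.76 times its counts, and the sources used here do not give the strand setting. The other netrin receptor gene, fra, was at 244, 252 and 313 CPM in AL and 138, 132 and 138 CPM in MB (0.99 ± 0.15, adjusted p = 5.2e-06), and the semaphorin gene Sema-1a at 194, 259 and 305 and 114, 92.2 and 134 CPM (1.16 ± 0.15, adjusted p = 4.9e-07). With spike-in and cell number scaling 4 members were called higher in AL and 3 in MB, the adjusted p of fra was 0.2 and that of Sema-1a 0.073, and the list's median turned from 0.12 to -0.20. The 3 MB calls were Sema-2b, Dscam2 and dlp, and none of the list was called higher in MB without AL replicate 1 and 1 without MB replicate 1.

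Of 39 RNA-binding protein genes 8 were higher in AL and 2 in MB (sqd and shep), or 25.6% called beside 7.67% of all genes. The translational regulator gene msi was at 986, 1238 and 1364 CPM in AL and 637, 379.9 and 623 CPM in MB (1.13 ± 0.14, adjusted p = 1.9e-07), and the hnRNP L gene sm at 107, 121 and 127 and 47, 34.8 and 63.2 CPM (1.29 ± 0.22, adjusted p = 6.6e-05). The hnRNP genes mub (0.58 ± 0.12, adjusted p = 0.00058) and Hrb98DE (0.57 ± 0.10, adjusted p = 0.00012) differed less. Of this list's 8, only sm stayed called higher in AL with spike-in and cell number scaling, where msi had an adjusted p of 0.061.

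Tubulins differed among themselves. The gene betaTub60D was at 429, 418 and 416 CPM in AL and 199.6, 105 and 183 CPM in MB (1.38 ± 0.19, adjusted p = 7.9e-07). By contrast gammaTub37C, known as the maternal gamma-tubulin, was at 12.8, 14.7 and 15.7 CPM in AL and 56.5, 47.2 and 44.9 CPM in MB (-1.78 ± 0.37, adjusted p = 0.00081), and alphaTub84B at 1951 ± 303 and 2977 ± 166 CPM (-0.61 ± 0.11, adjusted p = 7.3e-05; 0.11 with spike-in and cell number scaling). Glutathione S-transferases had 4 of 30 genes higher in MB and 1 higher in AL, GstZ2 (0.96 ± 0.12, adjusted p = 2.5e-07; 0.19 with that scaling). The MB calls included GstD3 (-3.29 ± 0.52, adjusted p = 1.4e-05), while those of its neighbours GstD1 (-0.66 ± 0.17, adjusted p = 0.011) and GstD10 (-1.23 ± 0.37, adjusted p = 0.029) were lost without single libraries. For GstD1 these were AL replicate 3 and MB replicate 3 (adjusted p 0.1 and 0.07), and for GstD10 all 6 in turn (0.053 to 0.11). Of the 30 glutathione S-transferase genes 16.7% were called, beside 7.67% of all genes. The MB count of the list was 1 without AL replicate 3 and 2 without each of the other 5 libraries. GstD genes are similar in sequence and may share reads.

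**Figure D4:**
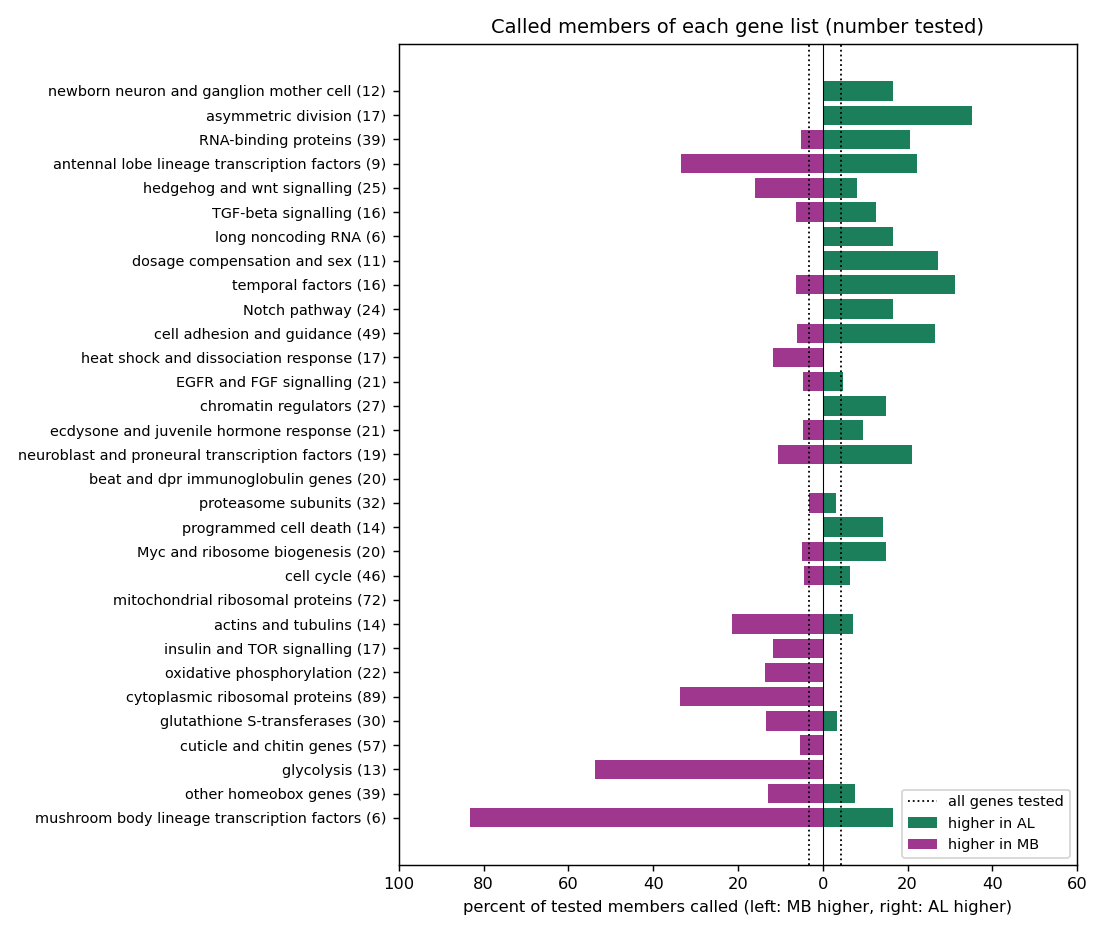
Percent of the tested members of each gene list, cell type markers left out, that were called higher in MB (purple, drawn to the left) or in AL (green, drawn to the right), ordered by the median log2 difference, with the number tested in parentheses and dotted lines at 3.25% and 4.42%, the shares over all genes. The mushroom body factors, glycolysis and the cytoplasmic ribosomal proteins reach furthest to the left, and asymmetric division and temporal factors furthest to the right. With spike-in and cell number scaling, 74 members were called in place of 164, cell type markers included in both totals.

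In the remaining lists between 0% (beat and dpr genes) and 27.3% (dosage compensation) of the members tested were called, beside 7.67% of all genes. Of 27 chromatin regulators 4 were higher in AL, among them ash2 (1.19 ± 0.21, adjusted p = 7.3e-05) and pho (0.98 ± 0.17, adjusted p = 5.9e-05). The count was 2 without AL replicate 2, MB replicate 1 or MB replicate 2. Of the other 2 genes, kis lost its call without any library but AL replicate 1 (0.05 to 0.17) and Utx without AL replicate 1, AL replicate 2, MB replicate 1 or MB replicate 2 (0.051 to 0.19). In dosage compensation, roX1, mle (0.70 ± 0.20, adjusted p = 0.024) and msl-1 (0.55 ± 0.17, adjusted p = 0.039) of 11 genes were higher in AL. The call of mle was lost without AL replicate 3, MB replicate 1 or MB replicate 3 (0.1 to 0.16), and that of msl-1 without AL replicate 2, AL replicate 3, MB replicate 1 or MB replicate 3 (0.094 to 0.21). Among newborn neuron genes hdc (1.05 ± 0.25, adjusted p = 0.012) and jumu (0.58 ± 0.16, adjusted p = 0.015) of 12 were higher in AL. The hdc call was lost without AL replicate 3 (0.073) or MB replicate 2 (0.064), and the jumu call without AL replicate 1 (0.11) or MB replicate 1 (0.14). In programmed cell death the caspase gene Ice (0.88 ± 0.26, adjusted p = 0.025) and the caspase inhibitor gene th (0.66 ± 0.17, adjusted p = 0.011) of 14 were higher in AL, and both were lost without AL replicate 3 (0.12 and 0.15) or MB replicate 2 (0.16 and 0.069), as was Ice without MB replicate 3 (0.094). Of 17 heat shock and cell dissociation genes, 2 were higher in MB, Hsp60 (-0.47 ± 0.14, adjusted p = 0.03) and the Fos gene kay (-0.82 ± 0.23, adjusted p = 0.017). The Hsp60 call was lost without AL replicate 2, AL replicate 3, MB replicate 2 or MB replicate 3 (0.099 to 0.2), and the kay call without AL replicate 2, AL replicate 3 or MB replicate 1 (0.051 to 0.16). Of 32 proteasome genes Pros28.1 was higher in AL and Prosbeta7 in MB. The first was lost without AL replicate 2, AL replicate 3, MB replicate 1 or MB replicate 3 (0.098 to 0.14) and the second without AL replicate 2 (0.08) or MB replicate 2 (0.16). With spike-in and cell number scaling neither Hsp60 (0.26), kay (0.081) nor any gene named here as higher in AL was called (0.11 to 0.97). None of 20 beat and dpr genes was called.

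Markers of other cells were called in 6 of 10 lists, at 5.88% (neurons) to 33.3% (Kenyon cells) of the members tested in those 6, beside 7.67% of all genes. The neuron list summed to 810 to 830 CPM in AL and 652 to 850 CPM in MB, of which elav and Syx1A made up the larger part, and 1 of 17 was called, cpx (1.46 ± 0.39, adjusted p = 0.012). That call was lost without AL replicate 1, AL replicate 3 or MB replicate 3 (adjusted p 0.058 to 0.061). The defining neuronal marker elav was at 329 to 399 CPM in AL and 225 to 358 CPM in MB, below dpn in every library, and the part of neurons in the other results was not tested. The defining glial marker repo was at 2.36, 0.985 and 0.604 CPM in AL and 3.49, 0.359 and 0.188 CPM in MB, and of 11 glial markers Nrx-IV was higher in AL (0.92 ± 0.21, adjusted p = 0.0026) and Eaat1 (-0.85 ± 0.16, adjusted p = 0.00019) and Mdr65 in MB. The glial count in AL was 2 without MB replicate 3. Mdr65 had 3 counts in AL in all, a ratio of 67.5 with an exact 95% counting interval of 22.6 to 331. Of the 9 Kenyon cell markers tested, Pka-C1 (0.86 ± 0.17, adjusted p = 0.00029) and mub were higher in AL and dac in MB. With spike-in and cell number scaling cpx (0.15), Nrx-IV (0.35), Pka-C1 (0.32) and mub (0.66) were not called, and ush was not called with spike-in scaling alone (0.057). In the haemocyte list ush was higher in AL (1.40 ± 0.27, adjusted p = 0.00043) and Hml in MB, from 2 counts in AL against 29 in MB, a call lost without AL replicate 1, AL replicate 3, MB replicate 1 or MB replicate 2 (0.086 to 0.16). In the optic lobe neuroepithelium list 1 of 8, hth, was called. None of the fat body, ring gland, muscle or projection neuron markers tested was called.

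Of 10 tracheal markers tested, verm and Gasp were higher in MB and the others were not called. The list summed to 44.3 to 67.2 CPM in AL and 90.8 to 167 CPM in MB. Gasp was at 4.15, 10.5 and 4.08 CPM in AL and 55.4, 17.9 and 51.5 CPM in MB (-2.73 ± 0.77, adjusted p = 0.022), a call lost without AL replicate 1, AL replicate 3, MB replicate 1 or MB replicate 3 (adjusted p 0.081 to 0.12). The defining tracheal gene trh was at 9.32, 18.5 and 23.7 CPM in AL and 6.16, 6.82 and 5.83 CPM in MB and was not called (1.45 ± 0.66, adjusted p = 0.21). Of 57 cuticle and chitin genes tested, 3 were higher in MB (Cpr76Bc, verm and Gasp) and none in AL, beside 3.25% of all genes, and with limma on log2(TPM + 1) 7 were. The part of tracheal or epidermal cells in these values was not tested.

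Genes called differed from the rest in several properties, which were looked at after results were seen over all chromosomes, biotypes and GO terms of the table. GO transcription factors had 41 of 383 genes higher in AL and 26 higher in MB, or 17.5% called against 7.29% of other genes. On the X chromosome 97 of 1683 genes were higher in AL and 38 in MB, with a median of 0.06, and on the arms of chromosomes 2 and 3 together 344 and 289 of 8422, with a median of -0.07. On chromosome 4 they were 9 and 5 of 84. Genes higher in AL had a median GC content of 42.7% and those higher in MB 44.9%, against 46.2% for genes not called. Length implied by the ratio of counts to TPM, relative to the rest of the table, had medians of 1.55, 0.99 and 0.86 in the same order. Genes with few counts in every library have no such value and are left out of these medians. Depth also differed by lineage, and with the counts of every library thinned to the smallest total 772 genes were called, 411 higher in AL and 361 in MB.

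The lineage difference at 84 h was partly the one seen earlier in larval life, in other libraries of the same fit. The lineages differed in 1120 genes at 24 h (10.8%; 4.75% higher in AL and 6.1% in MB) and in 1170 at 50 h (11.3%; 6.39% and 4.94%). Of the 792 genes called at 84 h, 420 (53%, and 35.9% of the 50 h calls) were called in the same direction at 50 h and 262 (33.1%, and 23.4% of the 24 h calls) at 24 h. Called in the same direction at all 3 ages were 226 genes, 109 of them higher in AL and 117 in MB. Called in the opposite direction were 8 genes at 50 h and 44 at 24 h. Of those 44, 33 were higher in AL at 84 h.

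For 3 genes with a large difference at 84 h, no change since either age was called. The difference of tll was -6.75 ± 0.28 at 24 h and -6.71 ± 0.28 at 50 h, beside -5.98 ± 0.26 at 84 h, and its change since 24 h was 0.76 ± 0.37 (adjusted p = 0.27). That of hbn was -5.10 ± 0.54 and -6.36 ± 0.59, with a change of -2.12 ± 0.82 (adjusted p = 0.14) since 24 h. The difference of mid was 11.03 ± 0.41 and 9.37 ± 0.40, fitted against 2 and 3 counts in MB, with a change of -1.89 ± 1.24 (adjusted p = 0.46) since 24 h. These p-values do not show that the differences were equal. The difference of retn was -7.47 ± 0.28 at 24 h and narrowed by 84 h (1.30 ± 0.36, adjusted p = 0.029), a change lost without any library of 84 h but AL replicate 1 (0.052 to 0.088). The ribosomal protein list was on the MB side at every age, with 61 of 89 genes called higher in MB at 24 h and 69 at 50 h, and none higher in AL at either age.

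Whether the difference itself changed with age was tested as an interaction, which uses the libraries of 84 h again. Between 50 h and 84 h it changed in 57 genes (0.552%), 17 towards AL (0.165%) and 40 towards MB (0.387%), and 1074 genes had an unadjusted p under 0.05. Between 24 h and 84 h it changed in 486 genes (4.71%), 302 of them towards AL (2.93%) and 184 towards MB (1.78%).

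Imp changed side. At 24 h it was at 32437 ± 4596 CPM in AL and 11291 ± 481 CPM in MB, at 50 h at 17661 ± 3301 and 9187 ± 1167 CPM, and at 84 h at 348 ± 47.4 and 4097 ± 514 CPM. The difference was thus 1.52 ± 0.12 (adjusted p = 1.7e-10) at 24 h, 0.94 ± 0.12 (adjusted p = 2e-06) at 50 h and -3.56 ± 0.13 at 84 h, a change of -4.50 ± 0.18 (adjusted p = 4.4e-17) since 50 h. Syp was at 1420.2 ± 625, 15705 ± 988 and 28847 ± 398 CPM in AL, and at 1171 ± 101, 1627 ± 145 and 5756 ± 1049 CPM in MB, at 24, 50 and 84 h. Its difference changed by 2.05 ± 0.32 (adjusted p = 0.00066) since 24 h, and by -0.95 ± 0.31 (adjusted p = 0.25) since 50 h, which passed with spike-in and cell number scaling (-1.52, adjusted p = 0.042), with DESeq2 (0.031) and with no filter on low counts (2.5e-09). Eip93F was at 191 ± 54.7 CPM in AL and 4.86 ± 0.91 CPM in MB at 50 h, when the difference was 5.28 ± 0.42 (adjusted p = 6.1e-08). The change to 84 h, -2.14 ± 0.52, did not pass (adjusted p = 0.08), but it passed with spike-in and cell number scaling (1.6e-05), with DESeq2 (0.0085), with no filter (5.2e-13) and without AL replicate 3 (0.048).

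The broad gene br showed a difference at 50 h that was not seen at 84 h. It was at 537, 566 and 601 CPM in AL and 78.4, 119 and 57.3 CPM in MB at 50 h, a difference of 2.74 ± 0.19 (adjusted p = 1.8e-13), and the change to 84 h was -2.96 ± 0.26 (adjusted p = 4.6e-10). EcR had a difference of 1.54 ± 0.20 (adjusted p = 1.1e-06) at 50 h and changed by -1.18 ± 0.28 (adjusted p = 0.039), a change lost without AL replicate 1, AL replicate 2, MB replicate 1 or MB replicate 3 (0.094 to 0.13). The nuclear receptor gene svp had a larger difference at 24 h, with 778 ± 49.8 CPM in AL and 44.4 ± 5.76 CPM in MB at that age, and its difference changed by -2.87 ± 0.37 (adjusted p = 2.6e-05).

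Among lineage factors, oc closed much of its gap. It was at 2.44 ± 0.70, 10.5 ± 6.51 and 72.8 ± 28.6 CPM in AL and at 358 ± 46.6, 297 ± 26 and 235 ± 26.6 CPM in MB, at 24, 50 and 84 h, a change of 5.48 ± 0.54 (adjusted p = 1.6e-06) since 24 h. The difference of ey narrowed from -2.92 ± 0.23 at 24 h, by 2.22 ± 0.30 (adjusted p = 1.6e-06), and that of ct from 6.08 ± 0.34, by -2.56 ± 0.41 (adjusted p = 0.00068). Dr was at 0.16, 4.46 and 1.20 CPM in AL at 24 h and at 58.4, 92.2 and 84.7 CPM at 50 h, and its difference changed by 5.53 ± 1.13 (adjusted p = 0.0018) since 24 h. SoxN was at 2.04 ± 1.21 CPM in MB at 50 h and 33.1 ± 14.4 CPM at 84 h, with AL at 520.3 ± 23.9 and 499.6 ± 105 CPM, a change of -4.05 ± 0.39 (adjusted p = 2.3e-08).

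The cuticle gene Cpr76Bc was at 1.26, 0.43 and 1.90 CPM in MB at 24 h, 22.5, 52.7 and 35.9 CPM at 50 h and 133, 75.2 and 78.8 CPM at 84 h, while AL stayed at means under 1 CPM, a change of -7.34 ± 1.20 (adjusted p = 0.00041) since 24 h. The coactivator gene eya was at 22 ± 10.4 CPM in AL and 1.26 ± 0.87 CPM in MB at 24 h, and at 2.58 ± 0.75 and 12.3 ± 3.79 CPM at 84 h, a change of -6.32 ± 0.97 (adjusted p = 1.4e-05). The 84 h call of eya, -2.24 ± 0.65 (adjusted p = 0.023), was lost without AL replicate 2, AL replicate 3, MB replicate 1 or MB replicate 3 (adjusted p 0.055 to 0.11). The ABC transporter gene E23 was at 181, 196 and 144 CPM in AL at 24 h and 5.39, 5.79 and 4.23 CPM at 84 h, when MB was at 3.90, 4.13 and 6.96 CPM and the lineages were not called different (0.05 ± 0.30, adjusted p = 0.96). The fitted change since 24 h, -9.15 ± 0.56 (adjusted p = 9.6e-16), rested on 4 counts in MB at 24 h. The glutathione transferase gene GstD3 was at 86.6 ± 8.59 CPM in AL and 7.31 ± 4.98 CPM in MB at 24 h, and at 0.79 ± 0.19 and 8.03 ± 1.15 CPM at 84 h, a change of -6.88 ± 0.69 (adjusted p = 9.5e-10).

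The Myc gene dm changed side. At 24 h it was at 2059 ± 167 CPM in AL and 5223 ± 371 CPM in MB, a difference of -1.34 ± 0.12 (adjusted p = 3.2e-11), and the change to 84 h was 1.93 ± 0.17 (adjusted p = 9.3e-11). Its antagonist Mnt changed in the same direction, from -0.85 ± 0.18 by 1.86 ± 0.25 (adjusted p = 4.7e-06), and the RNA-binding gene sm from -1.6 ± 0.22 by 2.89 ± 0.32 (adjusted p = 9.3e-09). The noncoding gene pncr002:3R, not called at 84 h (0.66 ± 0.22, adjusted p = 0.087), was at 54.7 ± 16.8 CPM in AL and 419 ± 53.7 CPM in MB at 24 h and at 4244 ± 922 and 2694 ± 502 CPM at 84 h, a change of 3.59 ± 0.33 (adjusted p = 1.2e-06). The number of changed genes depended on the scaling: since 24 h it was 1079 with spike-in and cell number scaling and 1233 with spike-in scaling alone, and since 50 h 89 and 433.

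**Figure D5:**
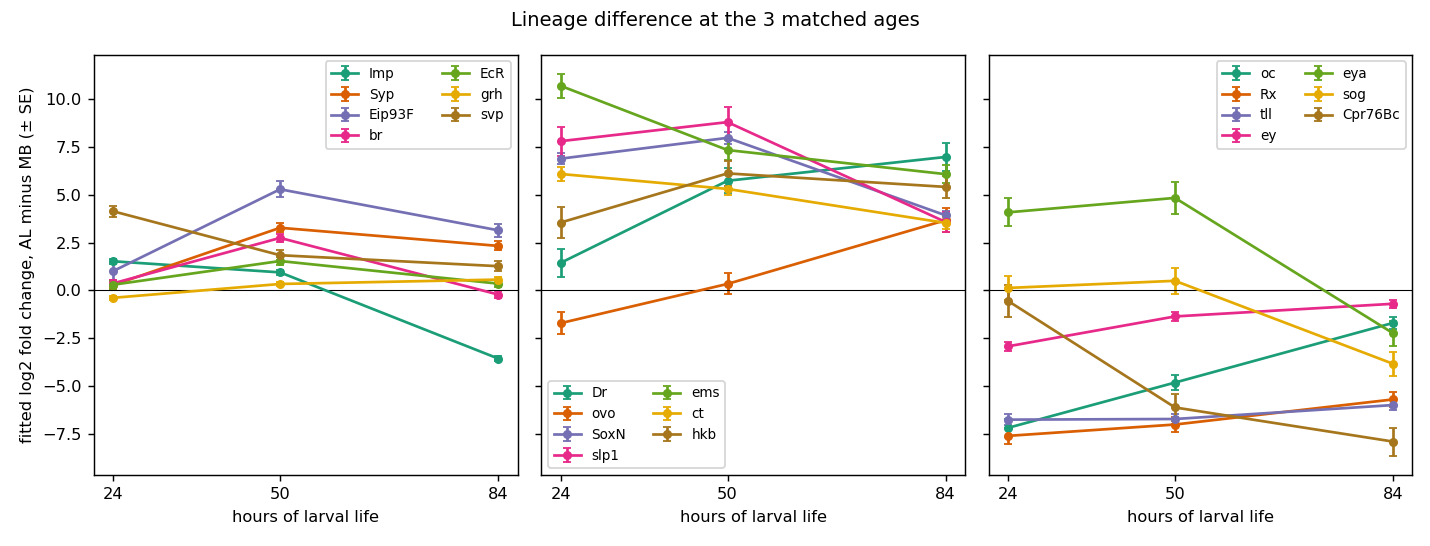
Fitted log2 fold change of AL over MB ± SE at 24, 50 and 84 h of larval life, for 21 genes chosen after results were seen, 7 in each panel. Imp crosses 0 between 50 and 84 h, br and EcR peak at 50 h, Dr and ovo climb with age, tll and Rx stay near -6 or below until 84 h, and oc approaches 0. The values of slp1 at 24 and 50 h and of ems at 24 h rest on 1 or 2 counts in MB and are fitted values only.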

How the data were processed

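Larvae were synchronised within 2 h and kept at 25 °C, about 30 brains were dissected, and tissue was digested for 30 min, per the labels' protocols. GFP-labelled cells were picked 10 at a time by a sorting robot and pooled to about 100, and RNA was amplified with a NuGEN Ovation kit with ERCC spike-in RNA. Tools listed in the submitters' processing notes are STAR 2.4.0i, Bowtie2 2.1.0, HTSeq 0.6.1p1, cutadapt 1.7.1 and CASAVA, with dm3 and mm10 as builds. The sources used here give neither annotation nor strand setting. The authors deposited raw counts per gene and TPM values for 24 libraries. Deposited TPM matched counts per length within a CV of 0.146% over 852 genes.

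Of 15437 rows, 15339 were genes, and 92 spike-in, 5 summary rows and 1 unnamed row (at most 0.000206% of counts in any library) stayed out of totals and tests. Counts were fitted with edgeR 4.0.16 (R 4.3.3; TMM, low-count filter, robust quasi-likelihood) to 8 groups of 3, with a common biological CV of 0.471, and p-values were adjusted over 10324 genes. Alternatives were DESeq2 1.42.0, limma 3.58.1 on TPM, other scalings and filters, thinned counts, a replicate block and each library left out.

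The members, gene lists and tests were chosen with earlier results of these data known. Genes named were the 15 highest and 15 lowest log2 differences among calls without overlap whose higher lineage reached 10 CPM, the 10 called genes with the largest CPM difference, all temporal and lineage factors, up to 4 members of each other list by adjusted p, and the 8 highest and 8 lowest of each interaction. Interactions of SoxN, retn, dm, Mnt, sm and pncr002:3R, and other members named within lists, were chosen after their values were seen. Counting intervals cover counting error only, since reads of amplified RNA without molecular identifiers are not independent molecules. Positions are dm3 coordinates from the deposited table.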

Additional observations from a re-analysis of the deposited data

Results flagged for a closer look

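For 49 values the difference between the lineages at 84 h departed from that at an earlier age, by edgeR's quasi-likelihood test of the interaction with Benjamini-Hochberg adjustment. Each value is the change in the log2 difference of AL over MB, and every group had 3 libraries.

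Since 50 h the change was -4.50 for Imp, -2.96 for br, -1.18 for EcR, 3.12 for oc, -4.05 for SoxN and -5.22 for slp1, of which slp1 had 1 count in MB at 50 h and lost its call without MB replicate 3 (adjusted p = 0.055). Among genes of other kinds it was -7.07 for eya and -8.08 for Gasp, both with 5 counts in MB at 50 h, -6.88 for E23, -4.94 for GstD3, and 3.87 for wun2, a lipid phosphate phosphatase gene. It was 1.96 for CG13920, which lost its call with spike-in and cell number scaling (0.18) and overlaps CG7967 on the opposite strand, and 2.64 for CG32037. The change of wun2 was lost with limma on log2(TPM + 1) and on log2(TPM + 0.1) (adjusted p = 0.15 and 0.086). So were those of slp1 (0.21 and 0.15) and EcR (0.16 and 0.18).

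The change of sog, a secreted BMP antagonist gene, was -4.34, with 5.61 ± 2.83 CPM in AL and 3.91 ± 0.70 CPM in MB at 50 h against 2.82 ± 2.06 and 41 ± 15.7 CPM at 84 h. It was -4.20 for luna, 3.43 for Prestin, 3.19 for Tret1-2, 1.73 for yip2 and 3.57 for CG4297. These 6 calls were each lost without 2 or more of the 6 libraries of 84 h in turn, with adjusted p from 0.053 to 0.17, and CG4297 and Tret1-2 overlap MED15 and Roc2 on the opposite strand. With spike-in and cell number scaling the changes of Prestin (0.13), Tret1-2 (0.11) and yip2 (0.38) were also lost.

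Since 24 h the change was -5.08 for Imp, 2.05 for Syp, 2.13 for Eip93F, 0.95 for grh, -2.87 for svp and -7.02 for Kr, a gene that specifies early neurons, which was at 109 ± 26.9 CPM in AL and 2.87 ± 2.32 CPM in MB at 24 h and at 5.72 ± 4.32 and 19.4 ± 13.6 CPM at 84 h. The call of Eip93F was lost without AL replicate 2, AL replicate 3, MB replicate 1 or MB replicate 2 (0.054 to 0.089). Among lineage factors it was 5.53 for Dr, -4.61 for ems, -2.56 for ct, 2.22 for ey, 5.48 for oc and 1.90 for Rx. That of ems, with 1 count in MB at 24 h, was lost without MB replicate 2 (0.68), and that of Rx without AL replicate 1, AL replicate 2, MB replicate 1 or MB replicate 2 (0.066 to 0.18).

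For other genes since 24 h it was -9.15 for E23, with 4 counts in MB at 24 h, -8.93 for CG30339, with 0 counts there and an overlap with CG1902 on the opposite strand, -7.34 for Cpr76Bc, -6.88 for GstD3, -6.56 for CG42566 and -6.32 for eya. It was -6.87 for the zinc finger gene peb, at 138 ± 57.9 CPM in AL and 1.09 ± 1.36 CPM in MB at 24 h and 5.30 ± 3.52 and 4.57 ± 0.21 CPM at 84 h. Towards AL it was 7.56 for Trim9, which overlaps w-cup on the opposite strand, 6.37 for the acetylcholine receptor gene nAcRbeta-64B, 5.38 for ovo, 5.11 for bowl, 4.93 for CG30419 and 4.69 for CG4580, which was lost without AL replicate 3, MB replicate 2 or MB replicate 3 (0.065 to 0.33). For the genes added to the text after their values were seen it was 1.3 for retn, which was lost without any library of 84 h but AL replicate 1 (0.052 to 0.088), 1.93 for dm, 1.86 for Mnt, 2.89 for sm and 3.59 for pncr002:3R.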

How the results depend on the processing

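In place of the 792 genes called at 84 h, 335 were called with spike-in and cell number scaling (81 higher in AL, 254 in MB). With spike-in scaling alone, an alternative chosen after seeing the data, 391 were called (81 and 310). Of the 792, 312 and 350 kept their call and direction under these scalings, and 484 to 605 with a library left out. DESeq2 gave 1026, with 524 higher in MB. With each library left out in turn the total ranged from 513 (without AL replicate 3) to 691, AL from 309 to 445 and MB from 204 to 275. The 57 changes since 50 h were 156 with DESeq2, 154 with no filter on low counts, 89 and 433 with the spike-in scalings, 36 with limma on log2(TPM + 0.1) and 37 to 91 with a library left out. The 486 since 24 h were 1079 and 1233 with the spike-in scalings, and 339 to 493 with a library left out. Of 135 named genes called, 80 and 84 were called under the spike-in scalings and 107 to 116 with a library left out. List members called numbered 74 and 86 under the spike-in scalings and 119 to 149 with a library left out, in place of 164. These are totals under each setting and may include members that are not among the 164.

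Replicate numbers are shared by the lineages. Same-numbered deviations correlated at -0.025, -0.049 and 0.087 over 5324 genes, and differently numbered ones at -0.10 to 0.12. These values cannot decide whether same-numbered libraries were prepared together, which the sources used here do not say. A replicate block gave 781 calls at 84 h (448 and 333), of which 753 were among the 792, 71 since 50 h and 454 since 24 h.

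Values turned in direction for 1 called gene, kis, at -0.0088 with spike-in scaling alone, and for 6 that were not called. With a library left out, acj6 ranged from -0.81 to 0.29, hb from -3.91 (without AL replicate 2) to 1.06, lin-28 from -0.40 to 0.15, mamo from -1.01 to 0.59 and nub from -1.21 to 0.83. acj6 was at 0.043 and hb at -1.85 with limma on log2(TPM + 0.1), hb at -0.55 with limma on log2(TPM + 1), hb at -0.60 and mamo at 0.14 with the block, lin-28 at 0.20 with thinned counts and vvl at -0.042 with spike-in scaling alone. The cause was not tested. A floor of 3 counts corresponds to 0.366 to 0.465 CPM in AL and 0.598 to 0.642 CPM in MB, and levels near or below it rest on a few counts.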
